A study of Mus musculus with 2 samples.

Results

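The genes of the mouse major histocompatibility complex (H2) were examined in single-cell RNA sequencing of the lungs of mice on a high-fat diet (HFD) and of mice on its control diet (CD). Members were all genes in the study's table of genes whose symbol starts with H2-, together with B2m, Cd74 and Ciita, which code for the class I light chain, the class II invariant chain and the class II transactivator. This rule found 28 of the 19278 listed genes. Lungs came from female BALB/c mice that entered the diets at 4 weeks of age, stayed on them for 16 weeks and were 20 weeks old at collection. CD drew 13% of its energy from fat, 27% from protein and 60% from carbohydrate, whereas in HFD, with lard as its fat, these shares were 60%, 20% and 20%. No genetic change is named for either group. Each diet had 1 library of the whole dissociated lung, and how many mice it held was not stated. The CD library held 8793 cells and 42470977 unique molecular identifiers (UMIs, each standing for 1 captured RNA molecule), and the HFD library held 9604 cells and 50679251 UMIs. Of all cell barcodes, 27 occurred in both libraries. The table of genes lists the kept genes and flags mitochondrial, ribosomal, cell cycle and highly variable ones. The highly variable flag was set over the cells of both diets together. No level of a member in a cell type or diet is given there, so none was analysed here.

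Class I molecules consist of an H2 heavy chain and beta-2-microglobulin, are made by nearly all nucleated cells, and show peptides of the cell's own proteins to CD8+ T cells. Class II molecules are pairs of an alpha and a beta chain, are made mainly by B cells, dendritic cells and macrophages, and show peptides of ingested proteins to CD4+ T cells. In the lung, AT2 cells are also known to carry class II. During assembly the invariant chain fills the class II groove, and the non-classical DM molecule then exchanges its remnant for peptide, a step that the non-classical DO molecule restrains. The class II genes share promoter elements called the X and Y boxes, on which the transactivator Ciita acts through proteins bound there. The classical class I genes carry an upstream enhancer bound by NF-kB.

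The promoters of members on both sides of the highly variable call are shown first, since several of the counts given later rest on letters within them. Each run is the 200 bases before the annotated start, read 5′ to 3′ on the strand of the gene, from the RefSeq promoter table of GRCm38.p6. The table held promoters for 23 of the 28 members and gave none for H2-Ab1, H2-Q1, H2-T24, Cd74 and Ciita. Capitals mark matches to ATTGG, the core of the Y box, on either strand (CCAAT is its reverse), to GGGATTCCC, the NF-kB site, and to the interferon response core (TTTC, any 2 bases, then TTTC) on either strand. They also mark GCAAC on the gene strand, a fragment of the X box. The first 3 class II promoters and those of H2-K1 and H2-D1 belong to classical members. Those of H2-DMb1, H2-DMb2, H2-Q6, H2-Q7, H2-Q4, H2-Q10 and B2m were chosen after their flags and motif matches had been seen. The runs are examples and not a sample of either class. The first 4 class I runs are the only ones with the exact letters GGGATTCCC among the 13 class I heavy chains with a promoter. H2-Q4 and H2-Q10 stand for the 9 without these exact letters. Near matches to the NF-kB site were not searched, and the H2-Q4 run holds the similar letters gggatttccc.
H2-Aa (chr17:34287824-34288023, minus strand): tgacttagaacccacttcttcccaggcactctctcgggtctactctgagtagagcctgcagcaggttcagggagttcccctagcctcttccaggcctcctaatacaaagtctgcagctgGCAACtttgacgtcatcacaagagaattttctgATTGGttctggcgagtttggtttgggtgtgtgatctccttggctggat
H2-Eb1 (chr17:34305667-34305866, plus strand): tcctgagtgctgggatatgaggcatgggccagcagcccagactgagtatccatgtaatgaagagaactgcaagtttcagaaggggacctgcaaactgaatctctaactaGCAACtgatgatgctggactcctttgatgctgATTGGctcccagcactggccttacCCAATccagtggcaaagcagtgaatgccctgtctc
H2-Eb2 (chr17:34325475-34325674, plus strand): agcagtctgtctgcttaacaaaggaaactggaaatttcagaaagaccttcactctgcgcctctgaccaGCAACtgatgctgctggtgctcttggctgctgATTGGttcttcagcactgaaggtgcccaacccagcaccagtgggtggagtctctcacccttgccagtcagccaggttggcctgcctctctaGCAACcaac
H2-DMb1 (chr17:34152991-34153190, plus strand): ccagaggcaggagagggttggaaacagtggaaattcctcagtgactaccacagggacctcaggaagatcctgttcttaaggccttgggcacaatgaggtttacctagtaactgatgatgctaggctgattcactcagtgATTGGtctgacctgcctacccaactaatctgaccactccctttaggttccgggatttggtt
H2-DMb2 (chr17:34145049-34145248, plus strand): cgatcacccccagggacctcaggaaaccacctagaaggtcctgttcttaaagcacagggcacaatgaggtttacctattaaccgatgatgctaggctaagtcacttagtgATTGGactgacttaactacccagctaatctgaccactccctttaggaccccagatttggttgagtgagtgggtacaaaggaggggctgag
H2-K1 (chr17:34000348-34000547, minus strand): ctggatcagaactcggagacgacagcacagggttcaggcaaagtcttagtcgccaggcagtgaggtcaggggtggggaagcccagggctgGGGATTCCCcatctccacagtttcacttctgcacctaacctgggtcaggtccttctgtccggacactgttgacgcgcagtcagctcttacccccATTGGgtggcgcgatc
H2-D1 (chr17:35262894-35263093, plus strand): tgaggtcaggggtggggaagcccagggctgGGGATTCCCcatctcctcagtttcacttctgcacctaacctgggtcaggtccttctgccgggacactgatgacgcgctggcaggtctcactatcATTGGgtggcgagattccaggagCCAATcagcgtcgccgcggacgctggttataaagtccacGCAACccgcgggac
H2-Q6 (chr17:35424650-35424849, plus strand): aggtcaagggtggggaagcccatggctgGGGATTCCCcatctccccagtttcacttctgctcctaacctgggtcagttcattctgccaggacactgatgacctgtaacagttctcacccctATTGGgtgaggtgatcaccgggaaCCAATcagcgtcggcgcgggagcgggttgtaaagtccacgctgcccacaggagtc
H2-Q7 (chr17:35438955-35439154, plus strand): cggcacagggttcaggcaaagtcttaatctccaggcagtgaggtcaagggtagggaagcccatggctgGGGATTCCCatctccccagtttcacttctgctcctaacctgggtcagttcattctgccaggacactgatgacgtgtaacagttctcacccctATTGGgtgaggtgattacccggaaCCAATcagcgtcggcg
H2-Q4 (chr17:35379417-35379616, plus strand): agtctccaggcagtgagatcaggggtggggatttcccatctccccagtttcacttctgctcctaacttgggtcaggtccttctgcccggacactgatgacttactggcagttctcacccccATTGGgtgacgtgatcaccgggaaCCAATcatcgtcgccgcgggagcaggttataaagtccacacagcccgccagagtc
H2-Q10 (chr17:35469889-35470088, plus strand): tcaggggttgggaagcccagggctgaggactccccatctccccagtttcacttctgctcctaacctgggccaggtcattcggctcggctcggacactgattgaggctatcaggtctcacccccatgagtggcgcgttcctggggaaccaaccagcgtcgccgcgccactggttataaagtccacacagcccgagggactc
B2m (chr2:122147487-122147686, plus strand): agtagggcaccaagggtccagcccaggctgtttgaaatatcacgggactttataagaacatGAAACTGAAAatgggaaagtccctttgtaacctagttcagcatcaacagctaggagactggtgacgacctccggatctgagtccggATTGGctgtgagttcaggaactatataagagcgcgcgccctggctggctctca
The first 5 runs are class II, the next 6 are class I heavy chains and the last is the class I light chain. RefSeq starts can lie inside the GENCODE gene, so the windows of H2-DMb2 and H2-D1 fall within the gene spans given below. Those of H2-DMb1, H2-Eb2 and B2m overlap them in part.

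The highly variable members were 5 class II chains and the invariant chain. Of the 28 listed members, 6 carried the flag, which is 21.4%, beside 5.19% of all 19278 listed genes (1000 genes). The flag marks the genes whose dispersion departed most from the trend of dispersion against expression. Mitochondrial, ribosomal and cell cycle genes and genes at or below a normalised level of 0.01 were not eligible. No member belonged to those 3 left-out groups, and all 28 were among the 18995 genes that could have been selected on that ground. A gene without the flag may be expressed evenly, or may lie below the level required. These cannot be told apart from the flag, which also carries no direction between the diets. Genes are not replicates and no test was run on these counts.

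**Figure D1:**
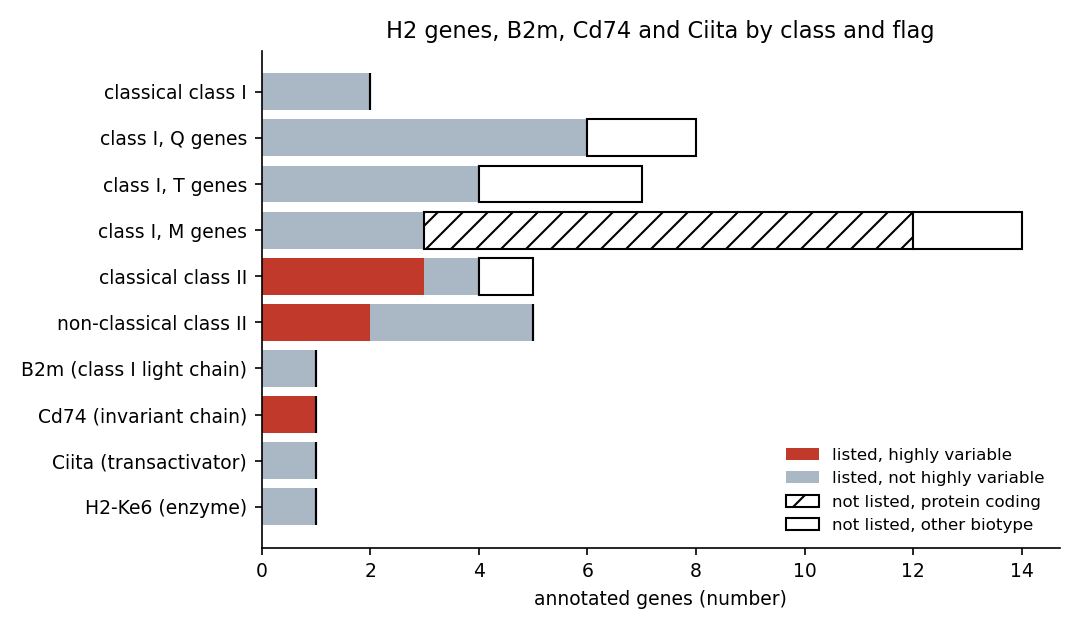
Number of annotated H2 genes, B2m, Cd74 and Ciita (x axis) by class (y axis), split by whether the gene was listed and whether it was flagged as highly variable. The 6 flagged genes lie in classical class II, non-classical class II and Cd74, and the 9 protein-coding genes that were not listed are all M genes of class I. The pseudogenes H2-K2, H2-Pa and H2-Pb are not drawn.

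The classical class II genes held 3 flagged members of 4 listed, or 75.0%, beside 5.19% of all listed genes. H2-Aa (ENSMUSG00000036594) codes for the alpha chain of the I-A molecule and lies at chr17:34282744-34287823 on the minus strand of GRCm38. H2-Ab1 (ENSMUSG00000073421), the beta chain of I-A, lies at chr17:34257689-34269419 on the plus strand. H2-Eb1 (ENSMUSG00000060586), the beta chain of the I-E molecule, lies at chr17:34305867-34316674 on the plus strand. All 3 were flagged. H2-Eb2, a second E beta gene at chr17:34325665-34341412 on the plus strand, was listed and had no flag. The partner of the E beta chains, the E alpha gene, is annotated in this genome as the polymorphic pseudogene H2-Ea-ps and was not listed. As background, the E alpha gene is defective in C57BL/6, the strain of the reference genome, and intact in BALB/c. Over all genes, 0 of the 82 annotated polymorphic pseudogenes were listed, so that the absence of H2-Ea-ps says nothing on its expression in these lungs.

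Of the 5 non-classical class II genes, all of them listed, 2 were flagged, or 40.0%. They were H2-DMb1 (ENSMUSG00000079547, chr17:34153072-34160230, plus strand) and H2-DMb2 (ENSMUSG00000037548, chr17:34143307-34151555, plus strand), which both code for beta chains of DM. H2-DMa (chr17:34119541-34139101), the alpha chain of DM, was listed without the flag. H2-Oa (chr17:34092340-34095234) and H2-Ob (chr17:34238903-34254414), the alpha and beta chains of DO, were also unflagged. Across both kinds, 5 of the 9 class II chains were flagged (55.6%), beside 5.19% of all listed genes. The invariant chain Cd74 (ENSMUSG00000024610, chr18:60803848-60812652, plus strand) was flagged too, whereas the transactivator Ciita (ENSMUSG00000022504, chr16:10480059-10528418, plus strand) was not.

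Among class I heavy chains, 15 genes were listed and 0 were flagged. Beside the 5.19% of all listed genes, a count of 0 of 15 is near the background and is no result about class I. The classical genes H2-K1 (ENSMUSG00000061232, chr17:33996017-34000347, minus strand) and H2-D1 (ENSMUSG00000073411, chr17:35262730-35267499, plus strand), which present peptide to CD8+ T cells, were both listed. From the Q region H2-Q1, H2-Q2, H2-Q4, H2-Q6, H2-Q7 and H2-Q10 were listed, which are all 6 of its protein-coding genes with an H2- symbol. H2-Q6 and H2-Q7 are members of the Qa-2 group, and H2-Q10 is known as a secreted molecule of the liver. From the T region all 4 protein-coding genes with an H2- symbol were listed, namely H2-T3, H2-T22, H2-T23 and H2-T24. H2-T23 codes for Qa-1, the ligand of the NKG2A receptor of NK cells, H2-T22 for a ligand of some gamma delta T cells, and H2-T3 for the TL antigen. From the M region only 3 of 12 protein-coding genes with an H2- symbol were listed. They were H2-M2, H2-M5 and H2-M3, the last of which presents formylated peptides. The light chain B2m (ENSMUSG00000060802, chr2:122147686-122153083, plus strand) was listed without the flag.

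The members that were not listed were also unevenly spread over the classes. GENCODE M21 holds 48 genes that meet the symbol rule, of which 37 are protein coding, and 28 of these 37 were listed (75.7%), beside 72.3% of all 22028 protein-coding genes. The remaining 9 were H2-M1, H2-M9, H2-M11, H2-M10.1, H2-M10.2, H2-M10.3, H2-M10.4, H2-M10.5 and H2-M10.6. Most M1 and M10 genes are known from sensory neurons of the vomeronasal organ. Genes detected in fewer than 5 cells were removed before deposit, so these 9 were below that limit or were not in the annotation used for counting. The other 11 annotated members are pseudogenes (H2-K2, H2-Pa, H2-Pb, H2-Ea-ps, H2-Q3, H2-Q5, H2-Bl, H2-T-ps, H2-T10, H2-M10.5-ps1 and H2-M6-ps) and 0 of them were listed. This was nearly general, with 1 of 13317 pseudogenes outside the antigen receptor loci listed. H2-Ke6, whose symbol meets the rule although it codes for the steroid dehydrogenase Hsd17b8, was listed and unflagged.

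The flagged members on chromosome 17 lay close together. The 25 listed members on this chromosome spanned 3487.5 kb, and the 9 class II chains lay within 249.1 kb of it. The 5 flagged ones took up 173.4 kb of that block, from H2-DMb2 to H2-Eb1. Unflagged H2-Ob (242.9 kb from the start of H2-K1) lay between flagged H2-DMb1 (157.1 kb) and H2-Ab1 (261.7 kb). The class II block also held 8 listed genes that are not members, among them Tap1 and Tap2, which form the peptide transporter of class I loading, and the immunoproteasome subunits Psmb8 and Psmb9. Of these 8 neighbours 0 were flagged. Beside the 5.19% of all listed genes, this count is near the background and is no result about these neighbours. Over the whole span, 12 of 122 listed neighbours carried the flag (9.84%).

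**Figure D2:**
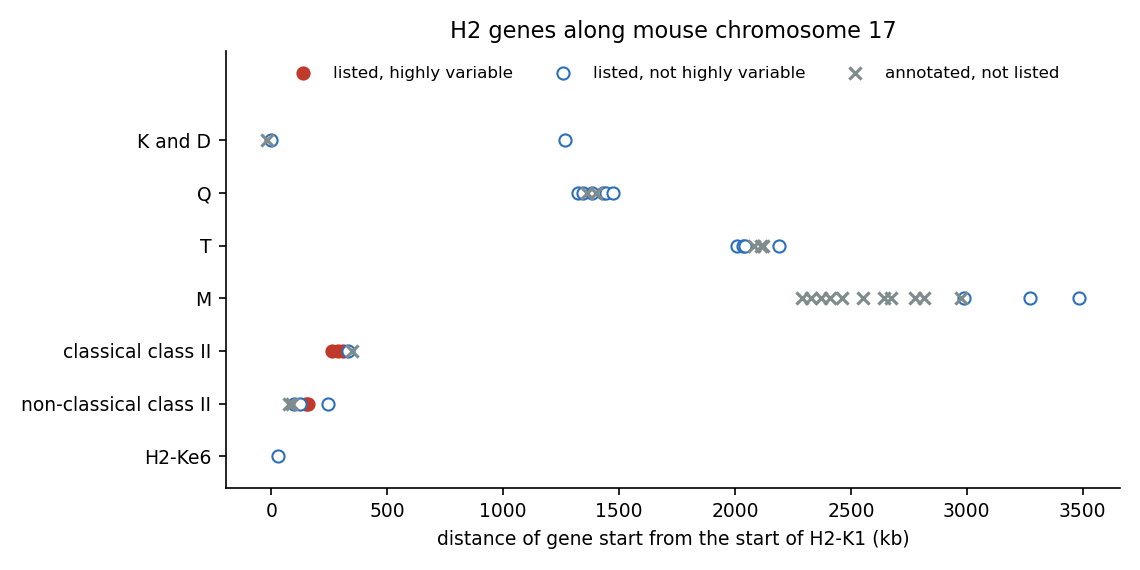
Start of each annotated H2 gene on chromosome 17 as distance in kb from the start of H2-K1 (x axis), with 1 row per gene group. Filled circles are listed and highly variable, open circles listed and not highly variable, and crosses annotated but not listed. Filled circles occur only in the class II rows, between 147.3 and 309.9 kb.

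Other genes of antigen presentation were counted in the same way, without a test between the lists. In the class I loading list, 0 of 13 genes were flagged. It comprises the transporter (Tap1, Tap2), its bridging protein Tapbp, the related gene Tapbpl and chaperones of the endoplasmic reticulum (Calr, Canx, Pdia3). It also holds the trimming peptidase Erap1 and subunits and activators of the proteasome (Psmb8, Psmb9, Psmb10, Psme1, Psme2). In the class II loading list, 2 of 6 genes were flagged (33.3%). These were Ctss, the protease that degrades the invariant chain, and Ifi30, a thiol reductase of the endocytic route. Ctsl, Lgmn, March1 and March8 had no flag. Of 11 genes for transcription factors and cofactors, 2 were flagged (18.2%), both interferon regulatory factors (Irf1, Irf8). The X box proteins Rfx5, Rfxap and Rfxank, the Y box proteins Nfya, Nfyb and Nfyc, Creb1, Irf2 and the class I transactivator Nlrc5 were unflagged. Thus neither transactivator, Ciita for class II or Nlrc5 for class I, carried the flag. Among 10 listed MHC-like genes outside the complex, which include Cd1d1, Mr1, Fcgrt and Hfe, 0 were flagged. Of 7 costimulatory genes 2 were flagged (28.6%), Cd80, a ligand of CD28, and Cd83, a marker of mature dendritic cells. All these shares are to be read beside the 5.19% of all listed genes. At that share, the counts of 0 of 13 and 0 of 10 are near the background and are no result about these lists.

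**Figure D3:**
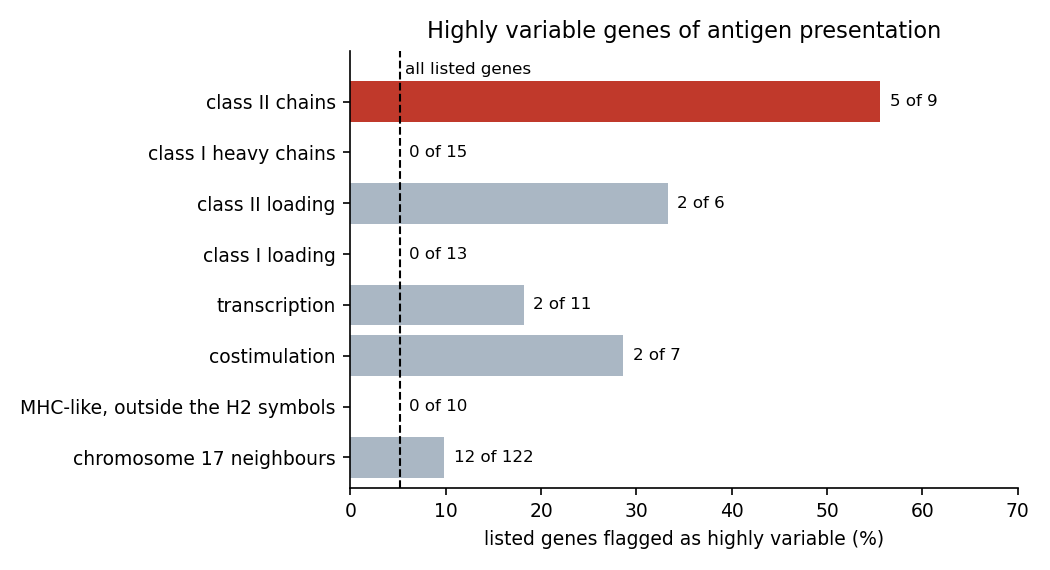
Percent of the listed genes of each list that were flagged as highly variable (x axis), with the number flagged of the number listed beside each bar. The dashed line is the share of all listed genes, 5.19%. Class II chains (5 of 9) have the longest bar of the 8 lists drawn, and no gene of class I heavy chains, class I loading or the MHC-like list was flagged. Each of these counts of 0 is near the share of all listed genes.

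Marker genes of cell types were read for the same flag, beside the 5.19% of all listed genes. Of 5 B cell markers 3 were flagged (Cd79a, Cd79b and Ms4a1), of 6 dendritic cell markers 2 (Ccr7 and Cd209a), of 5 macrophage markers 4 (C1qa, C1qb, Marco and Mrc1), and of 4 AT2 markers all 4 (Abca3, Lamp3, Sftpb and Sftpc). Flagged markers were not particular to these types, since 3 of 4 T cell markers (Cd3d, Cd3e and Cd8a) were flagged as well. Of the 3 endothelial markers Cdh5, Pecam1 and Cldn5, 0 were flagged, which is near the background and is no result about endothelial markers. With 3 to 6 genes per list these counts are a description. Which cells carried each H2 gene was not analysed here.

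In the promoters, the Y box core ATTGG was found for most members of both classes. On either strand, it was present in the first listed promoter of 7 of 8 class II chains and 10 of 13 class I heavy chains, beside 37.4% of all 32851 promoters of this length (300 bases, 250 before and 50 after the start). The exception among class II chains was H2-DMa, whose other promoter holds a match, since 2 promoters each are given for H2-DMa and H2-K1. Counted from the annotated start, the core began at position -48 in H2-Aa, -59 in H2-Eb1, -100 in H2-Eb2, -61 in H2-DMb1 and -90 in H2-DMb2.

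The NF-kB site GGGATTCCC was found in promoters of some class I heavy chains. It was present in 4 of 13 class I heavy chains, 0 of 8 class II chains and 0.353% of all promoters, on either strand. It began at position -110 in H2-K1, -170 in H2-D1, -172 in H2-Q6 and -132 in H2-Q7. The coding sequences of H2-Q6 and H2-Q7 (93.1% identity) and of H2-D1 and H2-K1 (88.3%) are alike, so these 4 are not separate observations. The interferon response core was found in H2-T22, H2-T23 and B2m, in none of the 8 class II chains, and in 3.44% of all promoters. Beside the shares of all promoters, the counts of 0 of 8 for both motifs are near the background and are no result about class II. A longer X box pattern (CCTAG, any 2 bases, then ACAG) was found in 0 of 23 members and 0.514% of all promoters. No match says only that these exact letters are not in the window, and near matches were not searched.

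The shorter X box fragment GCAAC was searched after the absence of the longer pattern had been seen. On either strand it was present in 6 of 8 class II chains, 3 of 13 class I heavy chains and 35.2% of all promoters. With ATTGG starting 30 to 33 bases after GCAAC starts, on 1 strand, it was present in 5 of 8 class II chains, 0 of 13 class I heavy chains and 0.201% of all promoters. The spacing was 33 bases in H2-Aa and H2-Oa, 32 in H2-Eb1 and H2-Eb2, and 30 in H2-Ob. Of these 5 genes, H2-Aa and H2-Eb1 were flagged and H2-Eb2, H2-Oa and H2-Ob were not. The flagged genes H2-DMb1 and H2-DMb2 held no GCAAC on either strand. The flag thus did not follow this exact spaced pair among the 8 class II chains with a promoter. Near matches were not searched, and flagged H2-Ab1 had no promoter to search. The spacing range was taken from these same promoters and the counts are a description. A match is not evidence of binding.

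**Figure D4:**
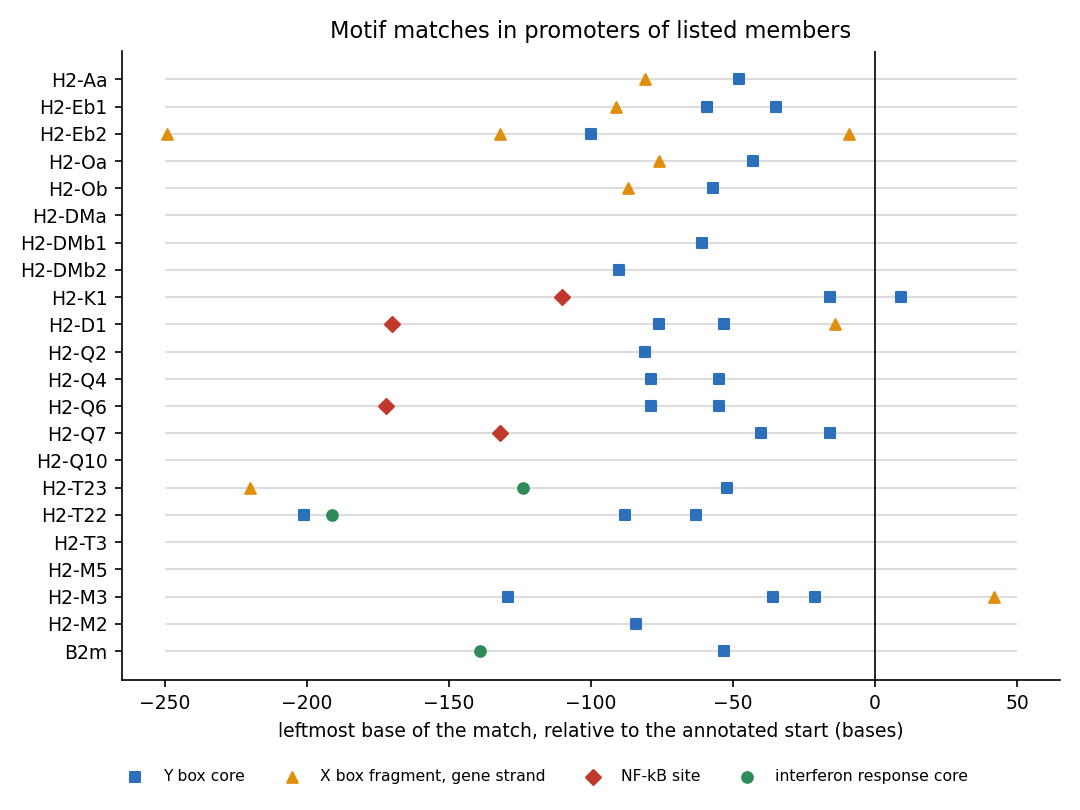
Position of each motif match relative to the annotated start in bases (x axis) in the first listed promoter of 22 members (y axis), with grey lines for the 300 bases searched. Matches are drawn for either strand except the X box fragment, which is drawn for the gene strand. Diamonds for the NF-kB site occur in H2-K1, H2-D1, H2-Q6 and H2-Q7, and triangles lie 30 to 33 bases before a square in H2-Aa, H2-Eb1, H2-Eb2, H2-Oa and H2-Ob.

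Near-identical copies within the complex limit how well reads can be assigned to single members. The class I heavy chains had a median identity of 67.4% over 105 pairs of coding sequences (range 53.1% to 93.1%). The median was 48.9% over 36 pairs of class II chains (44.8% to 95.9%). The class II pairs also set alpha against beta chains, so these medians do not compare like sets. The closest class I pair was H2-Q6 and H2-Q7 at 93.1%, with 45 mismatches and 24 gap columns in 1002 aligned columns, followed by H2-D1 and H2-K1 at 88.3%. The closest class II pair was H2-DMb1 and H2-DMb2 at 95.9%, with 32 mismatches in 783 aligned columns, and both genes were flagged. The 60-base stretch without gaps that differed most within each closest pair is shown, from GENCODE M21 transcripts, with the differing bases in capitals. It covers coding bases 76 to 135 of H2-Q6 and H2-Q7 (10 differences) and 208 to 267 of H2-DMb1 and H2-DMb2 (17 differences).
H2-Q6: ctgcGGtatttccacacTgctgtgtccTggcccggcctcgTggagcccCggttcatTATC
H2-Q7: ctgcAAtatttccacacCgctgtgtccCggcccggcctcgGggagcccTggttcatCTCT
H2-DMb1: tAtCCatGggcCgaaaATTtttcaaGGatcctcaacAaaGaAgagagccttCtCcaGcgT
H2-DMb2: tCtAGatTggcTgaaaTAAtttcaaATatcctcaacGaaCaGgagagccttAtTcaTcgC
Even there, 50 of the 60 bases are shared by the Q pair and 43 by the DM pair.

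Windows of 90 bases were therefore compared over all annotated transcripts. The share of a member's windows found in no other gene had a median of 96.0% in the 15 class I heavy chains (86.2% to 100%) and of 100% in the 9 class II chains (86.8% to 100%). The lowest class I values were 86.2% in H2-Q7, 86.8% in H2-Q6 and 88.2% in H2-T22. The classical genes reached 98.5% in H2-K1 and 95.8% in H2-D1. In class II, H2-DMb1 (86.8%) and H2-DMb2 (87.7%) were the exceptions, and within their coding sequences 69.9% of the windows were unique in each. Reads from the shared windows cannot be assigned to 1 of both genes by sequence, and how much this moved either flag was not tested. H2-Aa, H2-Ab1, H2-Eb1, Cd74, B2m and Ciita shared no window with another gene. H2-Ke6 shared most of its windows with the overlapping transcript Gm20427, and 37.1% were unique. Gm20427 was itself not listed, and how much this sharing bears on the unflagged call of H2-Ke6 was not tested.

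Other listed genes overlapped 8 of the members, each of them with at least 1 on the opposite strand. Among the flagged members this concerned H2-Eb1, which overlaps the antisense gene Gm20513. The unflagged members concerned were H2-DMa (with Brd2 and antisense genes), H2-Oa, H2-Q4, H2-T22, H2-T23, H2-T24 and Ciita (with Dexi). The mice were BALB/c and the reads were mapped to a reference built from C57BL/6J, which carries another H2 haplotype. How many reads of each member were lost by this was not tested.

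Cells of types known to carry class II were compared between the libraries, as numbers of cells and not as a level of any H2 gene. B cells, dendritic cells (DCs), plasmacytoid dendritic cells (pDCs), monocytes, macrophages and alveolar macrophages, as the authors named them, together numbered 1615 in CD and 1570 in HFD. Their share of a library was 18.4% in CD (exact 95% interval 17.6 to 19.2) against 16.3% in HFD (15.6 to 17.1). The HFD to CD ratio was 0.890 (0.830 to 0.955), and the intervals of the 2 shares did not overlap. The intervals in this comparison cover the counting error of cells only, and with 1 library per diet none of them is a test of diet. AT2 cells were instead the larger share in HFD, with 6.60% (6.11 to 7.12, 634 cells) against 4.55% in CD (4.12 to 5.01, 400 cells), a ratio of 1.45 (1.28 to 1.65). With AT2 cells added, an alternative chosen with their higher share in HFD known, the combined types held 22.9% of the cells of either library, and the ratio was 1.00 (0.942 to 1.06). Without B cells, also chosen after the data had been seen, the other 5 immune types numbered 696 in CD and 730 in HFD, a share ratio of 0.960 (0.864 to 1.07). A lower share was not particular to immune types, since endothelial cells went from 32.9% in CD to 29.6% in HFD (ratio 0.900, 0.854 to 0.948). Shares of a library are parts of a whole, so a higher share of AT2 cells goes with lower shares elsewhere. No loss of cells can be read from a lower share. Among the immune types, the ratio was below 1 with an interval that excluded 1 in B cells (0.837, 0.761 to 0.920) and alveolar macrophages (0.831, 0.701 to 0.985), although the share intervals of alveolar macrophages overlapped. At a limit of 10% mitochondrial UMIs the ratio of alveolar macrophages was 0.867 (0.728 to 1.03), an interval that included 1.

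The ratios of the other immune types had intervals that included 1. The share of DCs was 0.967% in CD (0.773 to 1.19, 85 cells) against 0.927% in HFD (0.745 to 1.14, 89 cells), a ratio of 0.959 (0.704 to 1.31). For pDCs it was 0.341% (0.230 to 0.487, 30 cells) and 0.416% (0.298 to 0.567, 40 cells), a ratio of 1.22 (0.742 to 2.03). For monocytes it was 1.82% (1.55 to 2.12) and 1.90% (1.63 to 2.19), with a ratio of 1.04 (0.838 to 1.30). For macrophages it was 1.46% (1.22 to 1.73) and 1.59% (1.35 to 1.86), with a ratio of 1.09 (0.860 to 1.40). Median UMIs per cell were higher in HFD in each of the 6 immune types, for example 2468 in CD and 2784 in HFD for B cells and 10841 and 13483 for alveolar macrophages. All intervals cover counting error only, and with 1 library per diet no test between the diets was possible. The authors' clusters were built on the flagged genes, which include the 6 flagged members, so these cell types are not independent of them.

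**Figure D5:**
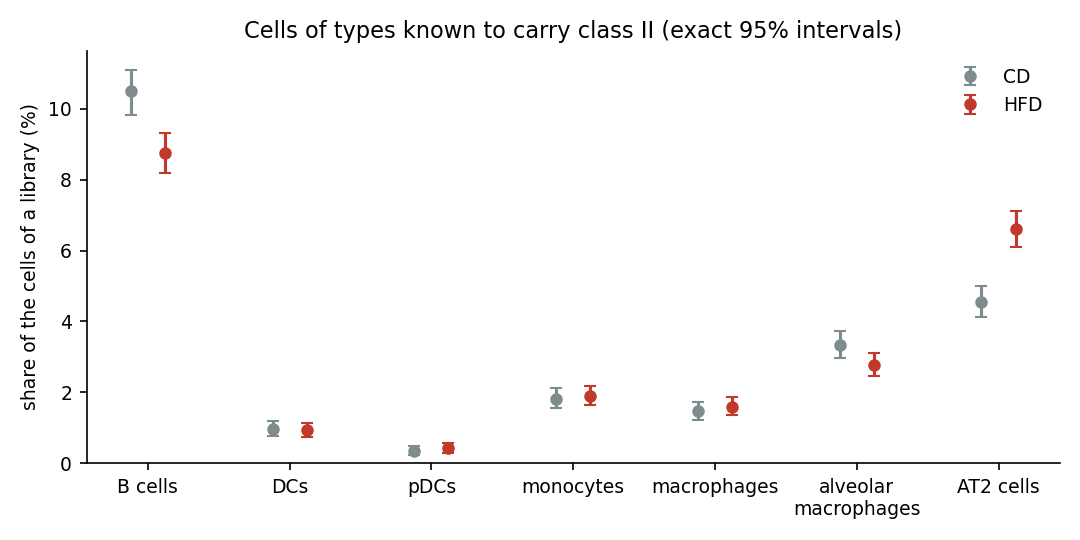
Share of the cells of each library in percent (y axis) for 6 immune cell types and AT2 cells (x axis), in CD (grey) and HFD (red). Points are the shares and bars their exact 95% binomial intervals, which cover counting error only, with 1 library per diet. The bars of B cells (lower in HFD) and of AT2 cells (higher in HFD) do not overlap, and those of the other 5 types do.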

How the data were processed

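Single-cell suspensions of whole lungs were profiled in 1 CD and 1 HFD library. The labels name a 3′ v2 droplet kit and the study's methods a 5′ v1.1 kit. Reads were aligned by the authors to GRCm38.p6 (mm10) using Cell Ranger, and they merged the libraries in Seurat (version 4.1.0 in the submitters' processing notes). The annotation used for counting is not given in the sources used here. Cells above 20% mitochondrial UMIs, below 500 UMIs or below 250 genes and genes found in fewer than 5 cells were removed by the authors. The deposited UMI counts per cell are not normalised. The deposited percent of mitochondrial UMIs per cell was used only as an alternative filter. The table of genes holds identifiers, symbols and yes-or-no flags. No doublet step is stated, and none could be added without values per gene and cell.

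Members and lists were chosen with earlier results of these data known. Of the list of transcription genes, 1 gene is not reported here and was left out of its count. Every member was to be named with its class and flag, with positions for flagged and classical members, B2m, Cd74 and Ciita. Protein sequences, planned for the identity comparison, were not used here, and coding sequences were aligned instead. All 28 members were found in GENCODE M21 (GRCm38) under the same symbol. Coding sequences of 1 transcript per gene (the principal one, otherwise the longest) were aligned globally with Biopython 1.88 (match 1, mismatch -1, gap opening -4, gap extension -0.5). Shares were given exact (Clopper-Pearson) 95% intervals and the ratio of 2 shares a conditional exact interval. Intervals, motif search and identity were tested on simulated data. Intervals were computed in Python 3.11.15 with scipy 1.17.1 and numpy 2.4.6, tables with pandas 2.3.3 and plots with matplotlib 3.10.9.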

Additional observations from a re-analysis of the deposited data

How the results depend on the processing

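The 6 flagged members were also set beside other backgrounds, which cannot change the count. These were 5.26% (genes that could be selected), 5.90% (protein-coding genes) and 9.84% (chromosome 17 neighbours, chosen after seeing the data). The count was 5 of 25 (20.0%) without B2m, Cd74 and Ciita and 6 of 27 (22.2%) without H2-Ke6. The median unique share of class I heavy chains, 96.0% with windows of 90 bases, was 86.4% with 50 bases and 99.7% with 150 bases. Restricted to 1 transcript per gene, a choice made after seeing the data, it was 100% over the first 500 bases, 100% over the last 500 bases and 99.3% over the coding sequence. Identity relative to the shorter sequence had medians of 72.6% for class I and 54.6% for class II. The HFD to CD ratio of the 6 immune types together was 1.00 (0.942 to 1.06) with AT2 cells added and 0.960 (0.864 to 1.07) without B cells, both chosen after seeing the data. With at least 1000 UMIs per cell no ratio or interval moved, so that filter was no test. Under the other alternative filters each ratio stayed within its interval. The interval of alveolar macrophages, however, included 1 (0.867, 0.728 to 1.03) at a limit of 10% mitochondrial UMIs. No paired analysis was possible because CD and HFD are single libraries.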

Other observations

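The 12 flagged neighbours of the H2 genes on chromosome 17 were of several kinds. Tnf and Ltb code for cytokines of the tumour necrosis factor family, and Lst1 and Aif1 are known from myeloid cells. C4b and Cfb are complement components, Hspa1a and Hspa1b are inducible heat shock proteins and Ier3 is an immediate early gene. Ager is a marker of alveolar type I cells, Sfta2 is a surfactant-associated gene, and Sapcd1 was the remaining one. Their shared position with the H2 genes is a description, and their levels per cell type were not analysed here.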
